A study of Mus musculus with 120 samples.

Results

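The imprinted growth gene network is described here as a set of 10 genes, *Dlk1*, *Igf2*, *H19*, *Meg3*, *Plagl1*, *Peg3*, *Cdkn1c*, *Grb10*, *Ndn* and *Mest*, out of 55487 genes that both count tables list. The 10 were chosen by their measured RNA levels in these samples, high at 6 weeks of age and low in later biopsies. That drop is therefore given as a description, and no test of it is used as support. All 10 were found by symbol in both tables and all 10 passed the filter on low counts in every comparison. The RNA came from porous polycaprolactone scaffolds under the skin of female mice. These implants collect host cells and are called immunological niches (INs). The mice received INs at 4 weeks of age, and each biopsied IN was replaced by a new one. Biopsies began at 6 weeks and were repeated weekly, so later samples also followed more surgeries. Age, earlier surgery and the time an IN was in place cannot be told apart in the change after 6 weeks. An IN holds a mixture of cells, so a smaller number of cells of a type and less RNA per cell cannot be told apart in these data.

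NOR/LtJ mice (NOR) gave 23 samples from 5 animals aged 6, 10, 14, 18 or 22 weeks, all in sequencing batch 1. NOD/ShiLtJ mice (NOD) were divided by outcome. Nonprogressors, NOD mice labelled as not progressing to hyperglycemia and numbered 1 to 11, gave 39 samples. In batch 1 these were 4 mice at each of 6, 10, 14, 18 and 22 weeks and 6 samples labelled by days after implantation, and in batch 2 they were 7 mice at 6 weeks and 6 at 14 weeks. Progressors, 10 NOD mice that became hyperglycemic, gave 58 samples, at 6 weeks of age and then by weeks before onset. Batch 1 held 5 progressors at 6 weeks, −5, −3 and −1 weeks and onset, and batch 2 held 5 others at the same times together with 8 samples at −7 weeks. The labels name no transgene and no drug in any group. The ages of the progressors after 6 weeks are not in the labels, so age and time to onset cannot be told apart in them.

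An imprinted gene is read mainly from the copy inherited from a single parent. Many such genes act on growth before and around birth and are turned down in most tissues as an animal matures, while stem cells and young mesenchymal cells can keep them. In general, genes read from the father's copy favour growth and those read from the mother's copy restrain it. *Plagl1* encodes a zinc finger transcription factor known to act on other imprinted genes, and the 10 genes include ligands, non-coding RNAs, transcription factors and restraints on the cell cycle and on growth factor signalling. In the mouse *Meg3*, *H19*, *Cdkn1c* and *Grb10* are read from the mother's copy in most tissues and the other 6 from the father's.

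The genes lie on 5 chromosomes (GRCm38), and 2 clusters hold 5 of them. On chromosome 12, *Dlk1* (109452823 to 109463336, plus strand) ends 77665 bases before *Meg3* (109541001 to 109571726, plus strand). On chromosome 7, *H19* (142575529 to 142578143, minus strand) is separated by 72623 bases from *Igf2* (142650766 to 142666816, minus strand), and *Igf2* by 791523 bases from *Cdkn1c* (143458339 to 143461050, minus strand). *Peg3* (6703892 to 6730431, minus strand) and *Ndn* (62346569 to 62350262, plus strand) lie elsewhere on chromosome 7. *Mest* is on chromosome 6 (30723547 to 30748465, plus strand), *Plagl1* on chromosome 10 (13060504 to 13131694, plus strand) and *Grb10* on chromosome 11 (11930508 to 12038683, minus strand). *Meg3* and *H19* are annotated as long intergenic non-coding RNAs and the other 8 as protein-coding.

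RefSeq (GRCm38.p6) promoters of 300 bases were found for 8 of the genes, with 15 start sites in all, and were searched on both strands for the letters of 5 motifs. The PLAGL1 motif GGGGCCCC was in 1.08% of all 32841 promoters and in 1 of these 15, that of *Peg3*. The TATA box TATAAA was in 13.6% of all promoters and in 1 of the 15, of *Meg3*, on both strands of the same overlapping letters. The GC box GGGCGG was in 35.7% of all promoters and in 8 of the 15, of *Grb10*, *Igf2*, *Mest*, *Ndn* and *Plagl1*. The CCAAT box was in 37.4% of all and in 3 of the 15, of *Igf2*, *Meg3* and *Peg3*. The YY1 motif AANATGG was in 16.1% of all and in 2 of the 15, of *Grb10* and *Igf2*. A gene with several start sites need not hold a motif at each. A match describes the letters and not the binding of a factor. The 250 bases before the start are shown for the 2 genes that alone held the PLAGL1 motif or the TATA box, with those letters in capitals, from chr7:6730420-6730669 (minus strand) and chr12:109540746-109540995 (plus strand).
Peg3: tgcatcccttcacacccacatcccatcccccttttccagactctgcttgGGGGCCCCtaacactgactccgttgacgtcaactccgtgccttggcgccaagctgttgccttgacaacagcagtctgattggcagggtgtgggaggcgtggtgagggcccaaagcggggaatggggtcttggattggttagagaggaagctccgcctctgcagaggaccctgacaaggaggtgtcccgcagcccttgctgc
Meg3: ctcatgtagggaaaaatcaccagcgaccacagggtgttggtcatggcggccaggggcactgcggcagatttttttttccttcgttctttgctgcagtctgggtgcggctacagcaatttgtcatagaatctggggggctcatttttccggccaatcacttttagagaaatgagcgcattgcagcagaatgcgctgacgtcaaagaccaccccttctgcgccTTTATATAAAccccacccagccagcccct

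*H19* and *Mest* are also the host transcripts of microRNAs, which ribosomal RNA-depleted libraries of long RNA do not measure as mature molecules, and the *Mir675* and *Mir335* entries had 0 counts in all samples. The microRNA of the *H19* exon (7:142577112 to 142577133, minus strand) and one from *Mest* (6:30741314 to 30741336, plus strand) are shown from RefSeq with the seed, bases 2 to 8, in capitals, to show what the hosts encode besides the RNA counted here. The 2 seeds differ.
mmu-miR-675-5p: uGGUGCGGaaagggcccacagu
mmu-miR-335-5p: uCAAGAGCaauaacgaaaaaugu

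Values are CPM, a gene's counts relative to the size of the library after scaling by edgeR's TMM method within a batch, and changes are log2 differences with their standard error (SE). Total counts per library in batch 1 had a median of 30186412, the smallest being 4722396 and the largest 56185434. In batch 2 the median was 36440355, within 29029239 and 43880986. In the 18-week library of NOR mouse 5, a ribosomal RNA gene (CT010467.1) took 85.7% of the counts and left 1233373. *Igf2* had a count of 0 in that library, which allows up to 2.91 CPM. The 6-week library of NOR mouse 4 had the lowest level among the 4 NOR mice for all 10 genes. Its summed erythroid markers were 47.6 CPM against 346 to 1291 in the other 3, its fibroblast markers 34777 against 38171 to 42596 and its endothelial markers 97.5 against 167 to 234. In batch 2 at 6 weeks, nonprogressor 5 had the lowest value of 8 of the genes and progressor 7 of 7. The part of these libraries' composition in the results was not tested.

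Per kilobase of exon, *H19* was the highest of the 10 genes at 6 weeks, with medians from 78.9 CPM per kilobase in batch 2 progressors to 214 in NOR. *Cdkn1c* followed, from 39.1 in batch 2 progressors to 129.5 in NOR. *Meg3* (15.5 to 23.7 over the 5 series) and *Grb10* (12.7 to 27.5) came next, and their medians changed order between the batches. *Mest* (10.9 to 15.8) was below both in 4 series, and in batch 1 nonprogressors its median of 15.8 was above those of *Meg3* (15.5) and *Grb10* (14.0). *Plagl1* (8.05 to 9.55) and *Dlk1* (4.17 to 10.4) were lower. *Ndn* (4.06 to 7.29), *Peg3* (2.71 to 3.31) and *Igf2* (0.555 to 4.72) had the lowest levels per length, except that *Dlk1* was below *Ndn* in batch 1 nonprogressors (4.17 and 4.72). Over the 6-week libraries of batch 1, the ranges of neighbours in this order overlapped, apart from the gap between *Cdkn1c* and *Meg3*. In batch 2 *H19* did not overlap *Cdkn1c*, nor did *Ndn* overlap *Peg3* or *Peg3* overlap *Igf2*.

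After 6 weeks the typical member was lower in all 5 series of samples. The median log2 change of the 10 genes, later biopsies minus 6 weeks, was −1.33 in NOR, −1.67 in nonprogressors of batch 1, −1.18 in those of batch 2, −1.95 in progressors of batch 1 and −1.63 in those of batch 2. The medians over all genes tested were between −0.011 and 0.026. The values that chose the genes are these same contrasts, so the counts past the threshold (an adjusted p under 0.05 in edgeR's quasi-likelihood test over all genes) are given only beside the share of all genes. In NOR 3 members (*H19*, *Plagl1* and *Mest*) were past the threshold and lower, where 0.0357% of all genes were. In nonprogressors it was 8 in batch 1 (6.61% of all genes) and 7 in batch 2 (17.3%). In progressors it was 9 in batch 1 (13.4%) and 7 in batch 2 (16.4%). No member was past it and higher, where 0% of all genes were in NOR, 7.15% and 16.8% in nonprogressors and 13.7% and 14.8% in progressors. The NOR count was 1 member (*H19*) with the mouse as a block. It was 0 without NOR mouse 1, 2 or 5, 1 without mouse 3 and 4 without mouse 4. The genes called in all were 7 in the main NOR fit, 2 with the block and 0 to 54 with a mouse left out. The batch 1 nonprogressor count was 3 without mouse 1 and 4 without mouse 4. There the genes called in all ran from 377 to 2766 with a mouse left out.

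**Figure D1:**
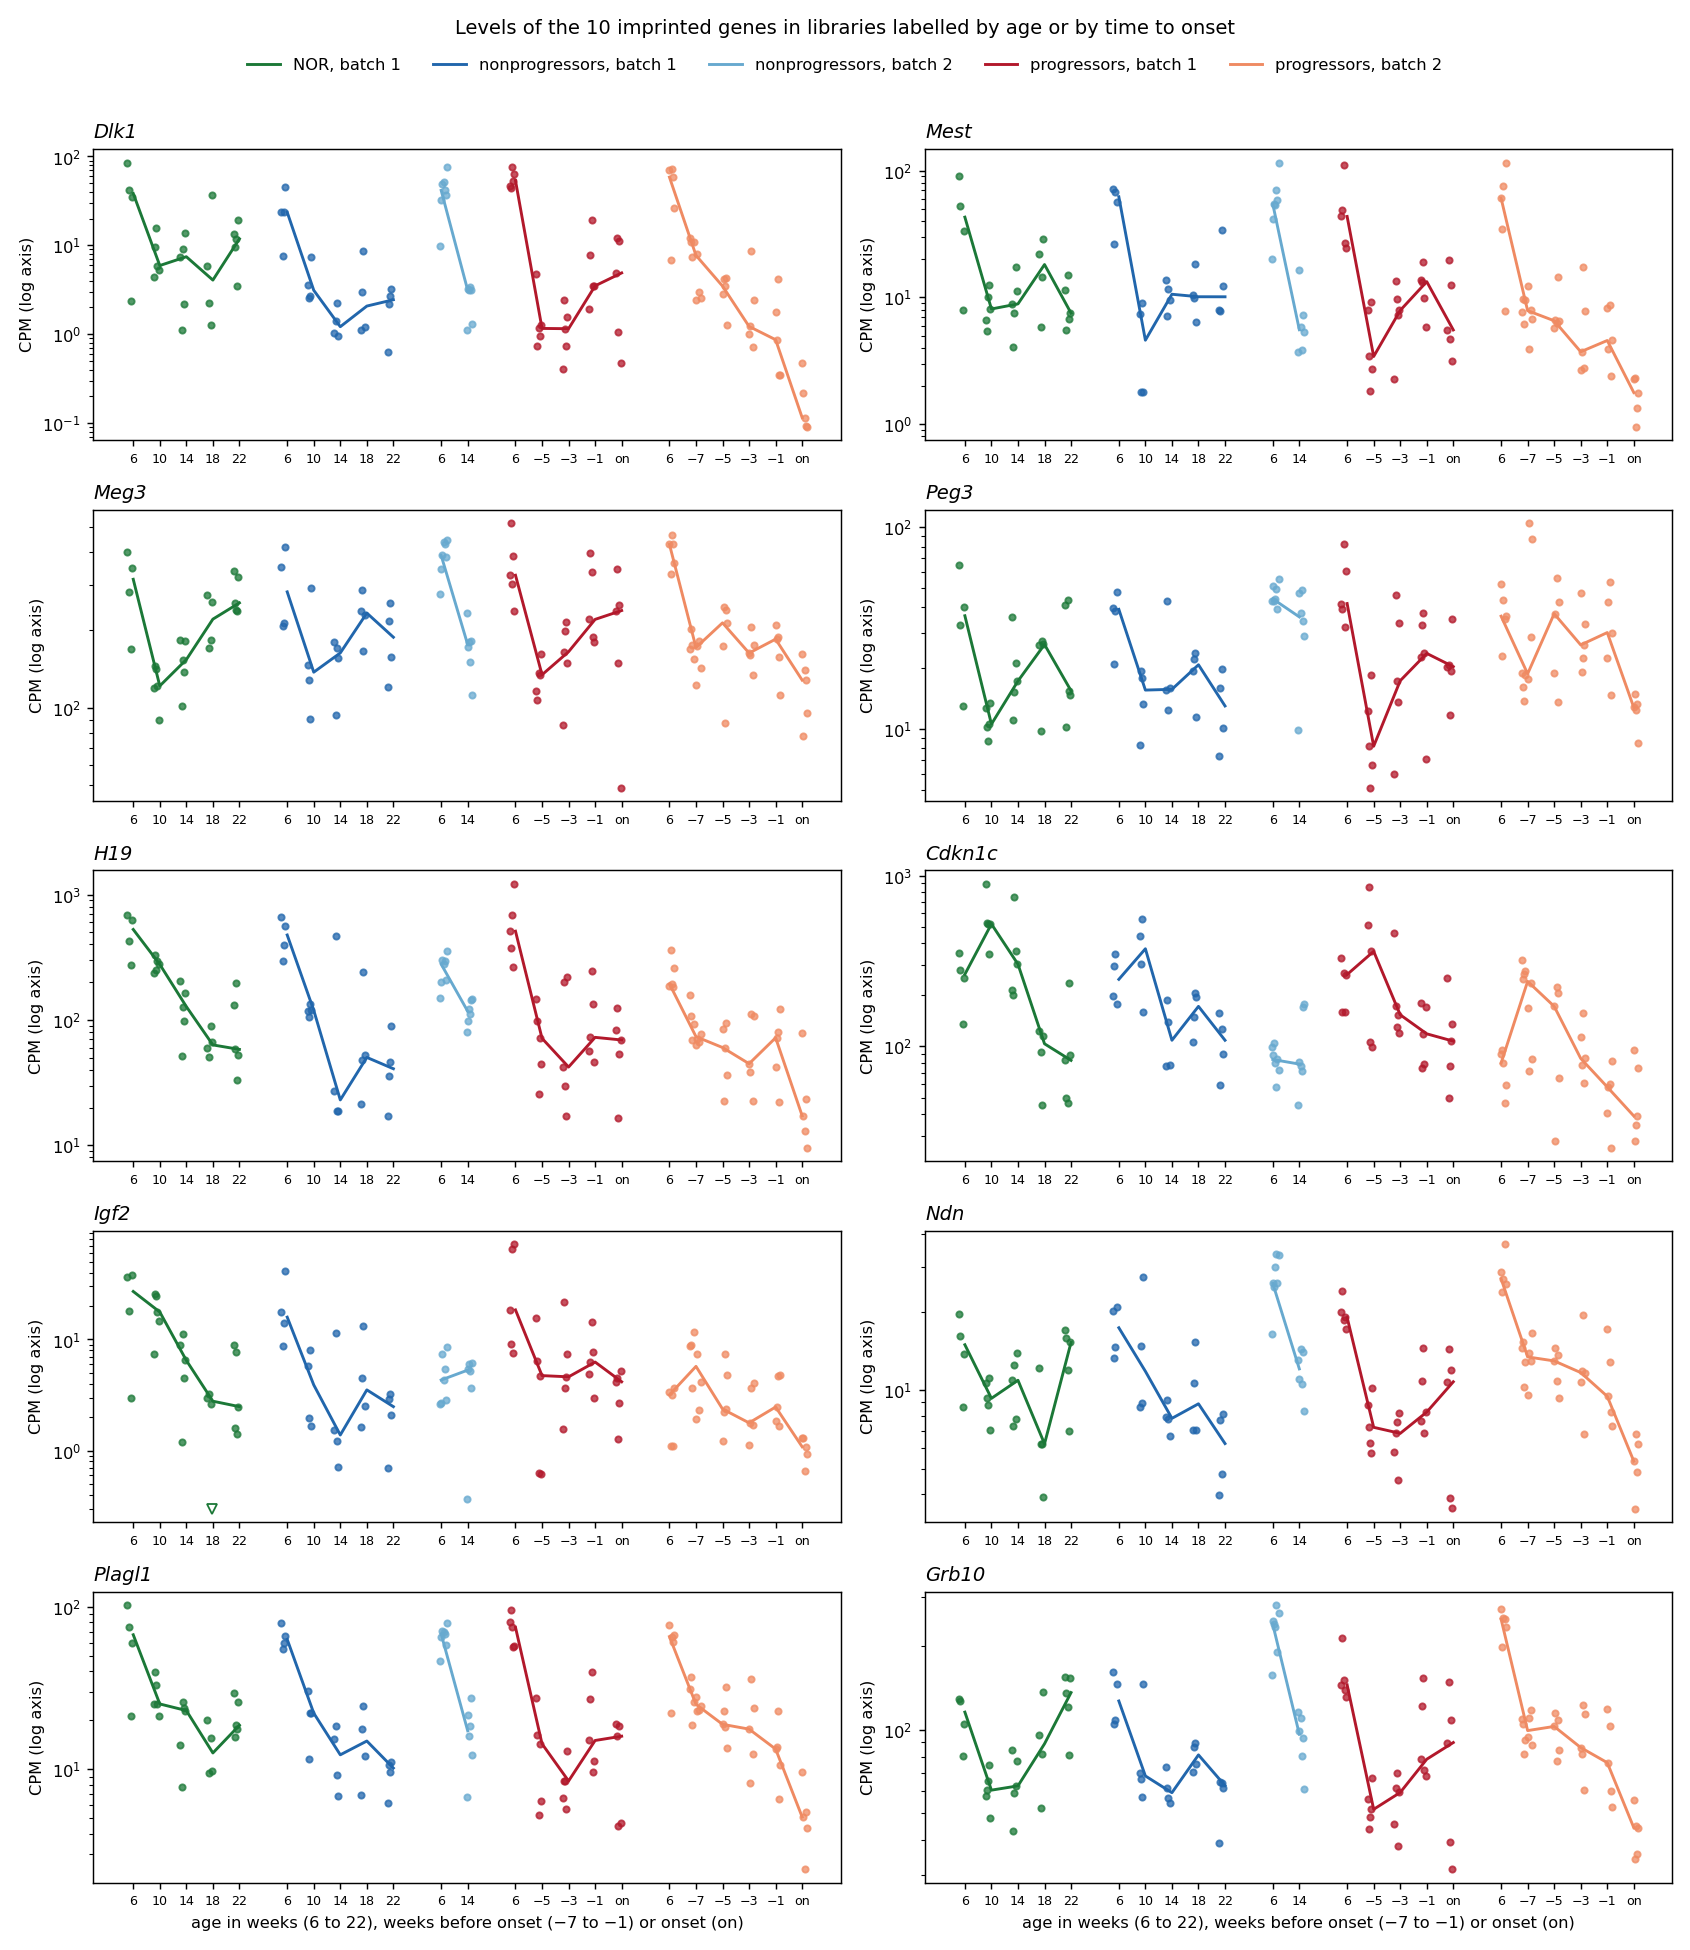
Level of each of the 10 genes (CPM, log axis) in every library labelled by age or by time to onset, 1 point per library, coloured by group and batch. In batch 2 nonprogressors 7 of the 10 genes have all 6-week points above all later ones, and in NOR 0 do. *Cdkn1c* is highest at 10 weeks in NOR and at −7 weeks in batch 2 progressors, with medians of 520.2 and 240.0 CPM.

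*Dlk1* encodes a membrane ligand related to the Delta family that holds back the maturation of fat cell precursors. At 6 weeks it was at 85.6, 42.1, 2.34 and 34.6 CPM in NOR mice 1, 2, 4 and 5, and the 19 later NOR samples ran from 1.104 to 36.9 (median 7.45). NOR mouse 4 stood apart at 6 weeks, and the NOR ranges overlapped. In batch 1 nonprogressors it was at 23.5, 7.54, 23.7 and 44.8 CPM at 6 weeks and at 0.634 to 8.70 (median 2.38) in the 16 later samples. In batch 1 progressors it was at 47.1, 44.2, 77.1, 53.5 and 62.8 CPM and then at 0.403 to 19.2 (median 1.75) in 20 samples, with no overlap. The batch 2 nonprogressors went from 9.89 to 75.8 CPM (median 41.6) at 6 weeks to 1.11 to 3.42 (median 3.12) at 14 weeks, again with no overlap. The batch 2 progressors had 70.5, 6.89, 71.8, 58.6 and 26.4 CPM at 6 weeks and 0.0903 to 8.72 (median 1.11) from −5 weeks to onset, where a later sample of mouse 8 lay above the 6-week sample of mouse 7.

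The log2 change of *Dlk1* was −2.36 ± 0.60 (SE) in NOR, −3.33 ± 0.42 and −4.06 ± 0.43 in nonprogressors of batches 1 and 2, and −4.18 ± 0.46 and −5.17 ± 0.46 in progressors of batches 1 and 2. It was the most negative of the 10 genes in each of the 5 series, but not in NOR without mouse 1, where it was −1.66 and *H19* −1.91, nor without mouse 4, where *Mest* was −2.57. The later level was lower in each NOD mouse with both times and in 3 of 4 NOR mice, mouse 4 being the exception. In batch 2 progressors the change from 6 weeks was −2.72 ± 0.59 at −7 weeks and −7.81 ± 0.93 at onset, where the 5 libraries had 0.472, 0.219, 0.115, 0.0930 and 0.0903 CPM. In batch 1 progressors, scaled separately, the 5 onset libraries had 4.90, 12.3, 1.05, 11.1 and 0.470 CPM. The summed fibroblast markers of the batch 2 onset libraries ran from 6664 to 19884 CPM, against 44617 to 76339 at 6 weeks.

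*Igf2* encodes insulin-like growth factor 2, a secreted growth factor of fetal life. At 6 weeks it was at 36.2, 17.9, 2.97 and 38.0 CPM in NOR, at 17.6, 8.70, 14.2 and 41.2 in batch 1 nonprogressors and at 18.5, 9.04, 64.6, 7.61 and 71.7 in batch 1 progressors. The later samples of these series had medians of 6.49, 2.30 and 4.68 CPM, and the ranges overlapped in each. The log2 changes were −1.95 ± 0.47, −2.47 ± 0.56 and −2.57 ± 0.54, and that of the nonprogressors was −3.12 without mouse 2 and −1.64 without mouse 4. In batch 2 *Igf2* was already low at 6 weeks, at 2.62 to 8.49 CPM (median 4.32) in nonprogressors and at 3.34, 1.09, 3.18, 1.11 and 3.68 in progressors. Its later changes there were −0.11 ± 0.46 and −0.10 ± 0.39, each smaller than its SE. It was lower later in 3 of 6 nonprogressors and 3 of 5 progressors of that batch.

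*H19*, a long non-coding RNA that shares its enhancers with *Igf2*, was at 687, 423, 273 and 631 CPM in NOR at 6 weeks and at 33.4 to 328 (median 128) later. In batch 1 nonprogressors it was at 661, 295, 395 and 558 CPM and then at 17.0 to 471 (median 50.3), where the highest later value was that of mouse 2 at 14 weeks. In batch 1 progressors it was at 511, 374, 681, 264 and 1221 CPM and later at 16.6 to 247 (median 70.3). Every later progressor sample lay below every 6-week sample of the same batch. In batch 2 the 6-week levels were 149.6 to 352 CPM (median 279) in nonprogressors and 185, 363, 194, 184 and 258 in progressors, and the later medians were 117 and 43.5. The log2 changes were −2.03 ± 0.30 in NOR, −2.39 ± 0.62 and −1.11 ± 0.20 in nonprogressors, and −2.79 ± 0.46 and −2.19 ± 0.35 in progressors. That of batch 1 nonprogressors was −3.13 without mouse 2 and −1.95 without mouse 1. All 24 mice with both times had less *H19* later.

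*Meg3*, a long non-coding RNA of the *Dlk1* cluster read from the opposite parental copy, changed less than *Dlk1* in these contrasts. It was at 401, 280.4, 169 and 349 CPM in NOR at 6 weeks and at 89.5 to 339 (median 181) later. Later medians were 45.1% and 37.8% of those at 6 weeks in nonprogressors and progressors of batch 2, without overlap. In batch 1 they were 57.5% in NOR, 59.9% in nonprogressors and 52.9% in progressors, with overlap in each. The log2 changes were −0.70 ± 0.17 in NOR, −0.72 ± 0.25 and −1.18 ± 0.15 in nonprogressors and −0.93 ± 0.26 and −1.34 ± 0.15 in progressors.

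*Plagl1*, the transcription factor gene introduced above, was at 103, 74.6, 21.3 and 59.8 CPM in NOR, 79.4, 55.2, 59.8 and 66.1 in batch 1 nonprogressors, and 80.9, 95.3, 74.7, 56.5 and 57.4 in batch 1 progressors. The later samples of these series ran from 7.79 to 39.8, from 6.21 to 30.4 and from 4.45 to 39.4 CPM. In both NOD series every later sample lay below every 6-week sample, and in NOR mouse 4 at 6 weeks was within the later range. In batch 2 nonprogressors it was at 46.6 to 79.0 CPM (median 67.9) and then at 6.78 to 27.4 (median 17.2), without overlap. In batch 2 progressors it was at 77.0, 22.3, 65.5, 60.5 and 66.6 CPM and then at 2.42 to 36.0 (median 13.4). The log2 changes were −1.67 ± 0.27 in NOR, −2.22 ± 0.25 and −1.93 ± 0.25 in nonprogressors and −2.46 ± 0.32 and −2.16 ± 0.25 in progressors, and all 24 mice were lower later.

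*Peg3*, which encodes another zinc finger protein, changed less, and its ranges overlapped in all 5 series. Its 6-week levels were 64.8, 32.6, 12.97 and 40.05 CPM in NOR, and 20.9 to 82.2 over the 9 NOD libraries of batch 1 (median 39.8). The log2 changes in batch 1 were −1.001 ± 0.34 in NOR, −1.11 ± 0.29 in nonprogressors and −1.44 ± 0.34 in progressors. In batch 2 they were −0.43 ± 0.26 and −0.60 ± 0.37, where the later medians were 81.4% and 62.0% of those at 6 weeks.

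*Mest*, which encodes a protein of the alpha/beta hydrolase fold and rises in growing fat tissue, was at 91.4, 52.2, 7.99 and 33.7 CPM in NOR at 6 weeks and at 4.07 to 29.1 (median 8.88) later. In batch 1 it was at 72.0, 26.3, 67.6 and 56.6 CPM in nonprogressors and 43.5, 48.9, 110.2, 27.0 and 24.5 in progressors, with later medians of 9.32 and 7.93. In batch 2 it was at 19.97 to 115 CPM (median 54.4) in nonprogressors and 60.6, 34.6, 75.6, 7.76 and 116 in progressors, with later medians of 5.56 and 4.24. Its log2 changes were −2.12 ± 0.37 in NOR, −2.51 ± 0.37 and −3.05 ± 0.43 in nonprogressors and −2.62 ± 0.37 and −3.63 ± 0.34 in progressors. Exons of *Mest* overlap the antisense gene *Copg2*, which had 125040 counts in all against 71942 for *Mest*. Whether the authors' counting used strand is not given in the sources used here, and without it reads of the overlap cannot be told apart.

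*Grb10* encodes an adaptor that restrains insulin and insulin-like growth factor receptors. It was at 129, 127, 80.7 and 105 CPM in NOR at 6 weeks and at 43.1 to 155 (median 77.1) later, a change of −0.41 ± 0.19. In NOD it changed by −0.89 ± 0.18 and −1.30 ± 0.16 in nonprogressors and by −1.15 ± 0.23 and −1.69 ± 0.13 in progressors of batches 1 and 2. In batch 2 no later sample reached the 6-week range, which was 157 to 281 CPM in nonprogressors and 199 to 272 in progressors. *Ndn*, which encodes necdin, a protein that slows the cell cycle, followed a like order, with −0.52 ± 0.23 in NOR, −0.91 ± 0.25 and −1.19 ± 0.17 in nonprogressors and −1.28 ± 0.22 and −1.56 ± 0.16 in progressors. Its 6-week levels were 8.63 to 19.6 CPM in NOR, 13.3 to 24.2 over the 9 NOD libraries of batch 1 and 16.5 to 36.5 over the 12 of batch 2.

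*Cdkn1c*, which encodes the cyclin-dependent kinase inhibitor p57, had its highest median at the first time after 6 weeks in each of the 4 series with several later times. It was at 354, 278, 136 and 249.8 CPM in NOR at 6 weeks, at 895, 524, 520.0, 349 and 520.2 at 10 weeks, at 215, 198, 745, 364 and 303 at 14 weeks, at 123, 92.5, 45.6 and 114 at 18 weeks and at 82.7, 50.04, 46.8, 235 and 88.5 at 22 weeks. In NOR 4 of the 5 libraries at 10 weeks lay above the 6-week range, and all 4 at 18 weeks lay below it. Against 6 weeks the log2 change was 1.15 ± 0.46 at 10 weeks, 0.53 ± 0.45 at 14, −1.44 ± 0.49 at 18 and −1.33 ± 0.45 at 22. In batch 1 nonprogressors the medians at the same ages were 247, 372, 108, 171 and 108 CPM, and in batch 1 progressors those from 6 weeks to onset were 263, 359.8, 153, 118 and 107. In batch 2 progressors the medians were 79.7 CPM at 6 weeks, 240.0 at −7 weeks, 171 at −5, 84.9 at −3, 57.8 at −1 and 39.1 at onset. Averaged over the later times the changes were −0.28 ± 0.36 in NOR, −0.60 ± 0.29 and 0.31 ± 0.28 in nonprogressors and −0.33 ± 0.40 and 0.08 ± 0.36 in progressors. The mean later log2 level was lower than that at 6 weeks in 3 of 4 NOR mice, in 4 of 4 and 4 of 6 nonprogressors and in 5 of 5 and 1 of 5 progressors of batches 1 and 2.

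**Figure D2:**
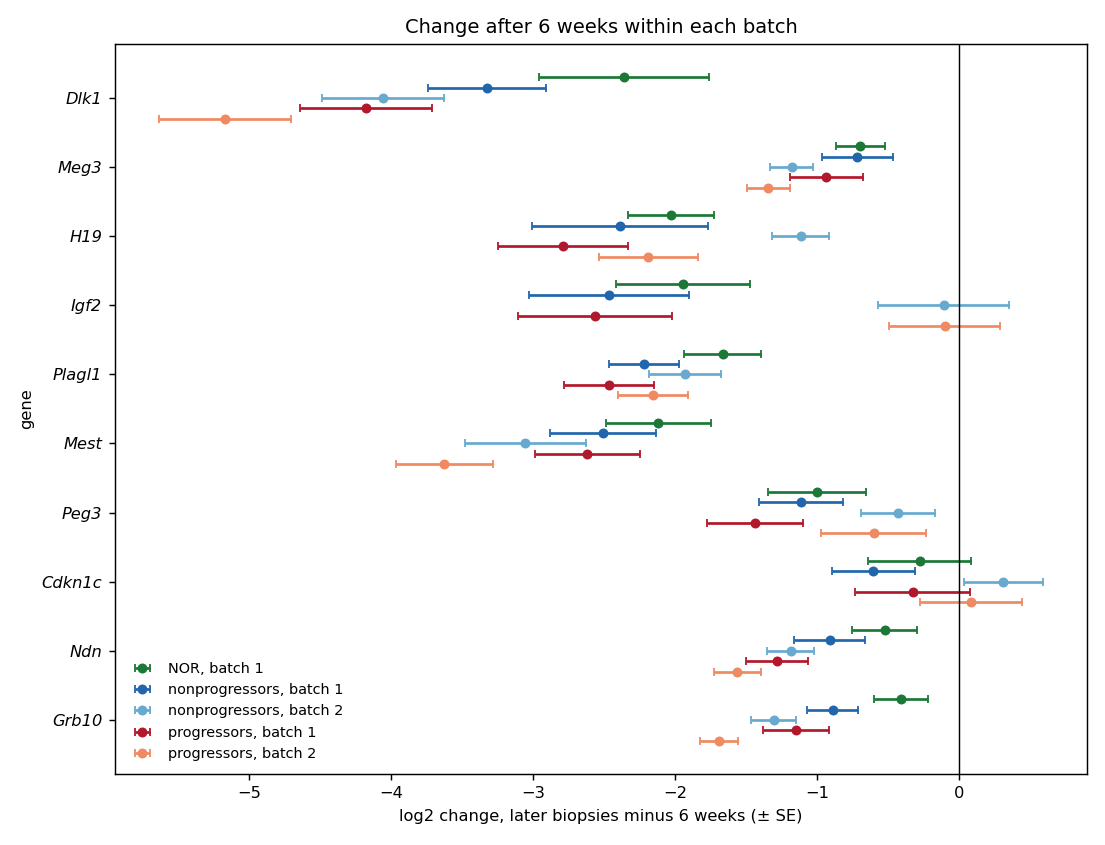
Log2 change (± SE) of each gene, later biopsies minus 6 weeks, in the 5 series, each fitted within its batch. *Dlk1* lies furthest to the left in each series, though in NOR it moves to −1.66 without mouse 1, where *H19* is at −1.91, and *Cdkn1c* lies between −0.60 and 0.31.

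Counted by separation, no member had all later samples below all 6-week samples in NOR, where 0.0224% of all genes did. In batch 1, *Plagl1* alone did so in nonprogressors (0.502% of all genes) and *Dlk1*, *H19*, *Plagl1*, *Mest* and *Ndn* did so in progressors (0.994%). In batch 2, 7 members did so in nonprogressors (5.10% of all genes), namely *Dlk1*, *Meg3*, *H19*, *Plagl1*, *Mest*, *Ndn* and *Grb10*. In batch 2 progressors 4 did so (2.69%), namely *Meg3*, *H19*, *Ndn* and *Grb10*.

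Fibroblast markers were lower later too in NOD. Of 8 fibroblast markers, 5 fell in batch 1 nonprogressors and all 8 in batch 2 nonprogressors and in progressors of both batches, and 0 passed in NOR (edgeR's quasi-likelihood test, adjusted p under 0.05 over all genes). Their summed median went from 40859 to 26449 CPM and from 60927 to 22677 in nonprogressors of batches 1 and 2. In progressors it went from 47734 to 23435 and from 66194 to 21693, and in NOR from 39986 to 29049. Of 8 proliferation markers, 6 and 8 fell in nonprogressors and 5 and 8 in progressors. Adipocyte markers went the other way in batch 2, where 7 of 7 rose in nonprogressors and 5 of 7 in progressors, while 1 of 7 fell in batch 1 progressors. Of 4 Schwann cell markers, 1 and 2 fell in nonprogressors and 1 and 2 in progressors of batches 1 and 2. Their summed median went from 210.0 to 97.8 and from 142 to 112 CPM in nonprogressors of batches 1 and 2. In progressors it went from 223 to 84.3 in batch 1, but from 82.8 up to 95.6 in batch 2. In batch 1 nonprogressors 5 of 5 epidermis markers (median −4.61) and 3 of 5 myogenic markers fell, 1 of 7 macrophage markers rose, and of 3 hair follicle markers 1 rose and 1 fell. In batch 2 nonprogressors 5 of 5 skeletal muscle markers, 2 of 5 T cell markers, 1 of 5 mural markers and the 1 myogenic marker tested rose, 3 of 7 macrophage markers fell, and of 4 epidermis markers 2 rose and 1 fell. In batch 1 progressors 1 of 5 endothelial and 2 of 5 erythroid markers fell and 1 of 4 epidermis markers rose. In batch 2 progressors 3 of 5 endothelial and 2 of 5 mural markers fell, and 3 of 4 B cell, 3 of 5 T cell, 2 of 4 hair follicle, 1 of 7 macrophage, 1 of 4 neutrophil and 1 of 5 myogenic markers rose. In NOR 0 markers of any list passed. None of the fibroblast markers was at 0 in these samples. The part of these cell types in the members' drop was not tested.

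Sequencing batch and level went together for some members, as they did for 60.8% of all genes. This is not particular to the set. Among the 21 NOD libraries at 6 weeks, *Igf2* had a median of 17.6 CPM in batch 1 (n = 9) and 3.26 in batch 2 (n = 12), *Cdkn1c* 263 and 81.8, and *H19* 511 and 233. The differences, batch 2 minus batch 1, were −3.20 ± 0.48 (adjusted p = 7.5e-06), −1.90 ± 0.16 (4.1e-09) and −1.40 ± 0.24 (3.1e-05) by edgeR's quasi-likelihood test. *Plagl1* was also lower by this test, by −0.43, while *Grb10* (0.46) and *Ndn* (0.32) were higher in batch 2, and 60.8% of all genes were past the threshold. *Dlk1*, with medians of 44.8 and 45.1 CPM, *Meg3*, *Mest* and *Peg3* did not pass. The summed adipocyte markers had medians of 417 and 83.0 CPM, the skeletal muscle markers 3087 and 25.9, the myogenic markers 7.24 and 0.488, and the fibroblast markers 47734 and 61248. No mouse gave a 6-week library in both batches, so batch and animals cannot be told apart in this comparison, and the part of these cell types was not tested.

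NOR and NOD did not differ detectably in these genes at 6 weeks. In batch 1, with 9 NOD and 4 NOR libraries, 0 of 10 members passed (edgeR's quasi-likelihood test), 1 had an unadjusted p under 0.05 and 2.11% of all genes passed. The closest was *Grb10*, with 0.38 ± 0.17 (adjusted p = 0.355), and DESeq2 called 0 members as well. For *Dlk1* the difference was 0.04 ± 0.63, so that a difference of 1 on the log2 scale lies within 2 SE of it. Of the marker lists, 1 of 5 erythroid markers was lower in NOD.

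At 10 to 22 weeks *Dlk1*, *Igf2* and *Plagl1* were lower in NOD nonprogressors than in NOR (batch 1, biopsies summed to 1 library per mouse). The mean CPM of *Plagl1* was 22.2, 21.2, 21.8, 20.5 and 20.002 in the 5 NOR mice and 14.7, 14.6, 16.4 and 13.03 in the 4 NOD mice. These means were 21.1 ± 0.900 (SD, n = 5) and 14.7 ± 1.39 (SD, n = 4), without overlap. The log2 difference, NOD minus NOR, was −0.55 ± 0.05 (adjusted p = 0.00019 by edgeR's quasi-likelihood test). *Dlk1* averaged 7.76, 6.76, 9.70, 3.22 and 18.8 CPM in the NOR mice and 1.58, 2.26, 4.09 and 3.21 in the NOD mice, which overlap at NOR mouse 4. Its difference was −1.62 ± 0.35 (adjusted p = 0.029). *Igf2* averaged 7.07, 9.53, 11.7, 6.55 and 5.92 CPM against 2.43, 5.20, 6.40 and 1.75, a difference of −1.35 ± 0.33 (adjusted p = 0.048). Of all genes 2.68% were past the threshold and lower in NOD. The later samples are among those of the drop described above, whereas the contrast between strains is not.

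**Figure D3:**
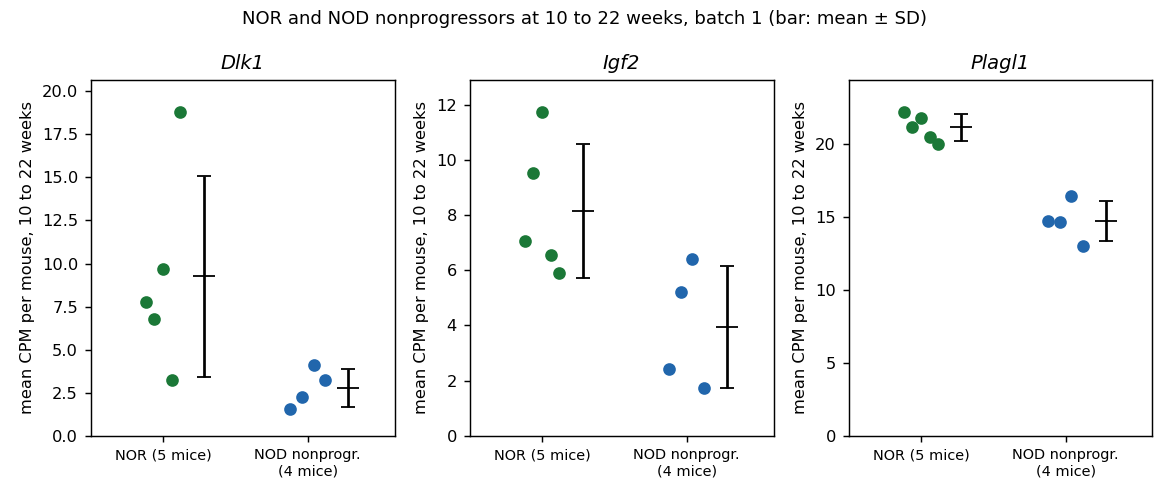
Mean CPM per mouse over 10 to 22 weeks in batch 1, with 1 point per mouse, for the 3 members that differed between the strains, with the mean ± SD of each group beside the points. The 4 NOD mice lie between 13.03 and 16.4 CPM for *Plagl1*, below all 5 NOR mice.

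The strain difference of *Plagl1* stayed past the threshold when any 1 of the 9 mice was left out. *Dlk1* lost it without NOR mouse 1, 3 or 5 or nonprogressor 1, 2 or 3, and *Igf2* without any NOR mouse or nonprogressor 1, 2 or 4, while the log2 differences stayed between −1.83 and −1.41 and between −1.57 and −1.11. *H19* passed without nonprogressor 2 (−1.19, adjusted p = 0.0020) and *Cdkn1c* without nonprogressor 3 (−0.81, adjusted p = 0.032). With each biopsy entered separately, *Dlk1* alone passed, and the differences of *Plagl1* and *Igf2* were −0.56 (adjusted p = 0.0751) and −0.84 (0.282). Among the marker lists at these ages, 2 of 7 macrophage and 1 of 5 erythroid markers were lower in NOD, 1 of 3 hair follicle markers was higher and 0 of 8 fibroblast markers passed. The medians were −0.23 for both the macrophage and the fibroblast markers, and their part in the strain difference was not tested.

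Within these ages the members did not move alike. In NOR from 10 to 22 weeks, *Cdkn1c* fell by 0.23 per week on the log2 scale (SE 0.04, adjusted p = 0.00013) and *Igf2* fell by 0.17 (SE 0.05, adjusted p = 0.022), where 7.09% of all genes fell. *Meg3* rose by 0.10 per week (SE 0.02, adjusted p = 0.0006) and *Grb10* by 0.09 (SE 0.02, adjusted p = 0.00095), where 6.12% of all genes rose. The NOR medians of *Grb10* were 60.6, 62.8, 89.0 and 136 CPM at 10, 14, 18 and 22 weeks, and the lowest library at 22 weeks (81.0) lay above the highest at 10 weeks (74.96). Those of *Meg3* were 122, 154, 220.4 and 255 CPM, also without overlap between 10 and 22 weeks (89.5 to 144 against 237 to 339). The slope of *Igf2* lost the threshold without NOR mouse 2, 3, 4 or 5, and the other 3 slopes kept it without any single NOR mouse.

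In nonprogressors over the same ages *Cdkn1c* fell by 0.13 per week (SE 0.04, adjusted p = 0.044) and *Ndn* fell by 0.09 (SE 0.03, adjusted p = 0.048), where 3.83% of all genes fell. Both lost the threshold with the mouse as a block (adjusted p = 0.0881 and 0.0716), without the low-count filter (0.0608 and 0.0698) and without any single nonprogressor. The *Grb10* medians of the nonprogressors were 68.2, 59.3, 81.2 and 62.9 CPM. Its slope differed from that of NOR by −0.12 per week (SE 0.03, adjusted p = 0.013 for the difference itself), where 1.99% of all genes had a lower slope in NOD. No other member differed in slope, and *Ndn* came closest with −0.12 (SE 0.04, adjusted p = 0.076), which was 0.047 without the 18-week library of NOR mouse 5. In NOR 2 of 8 fibroblast markers rose with age, in nonprogressors 2 of 8 fell, and 3 of 8 had a lower slope in NOD. Of the other lists in NOR, 1 of 5 endothelial markers rose, 1 of 7 adipocyte and 1 of 5 T cell markers fell, and of 7 macrophage markers 1 rose and 1 fell. In nonprogressors 1 of 7 macrophage markers fell, and 1 of 4 B cell and 1 of 2 hair follicle markers rose. The part of the fibroblasts in the slopes of *Grb10* and *Meg3* was not tested.

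**Figure D4:**
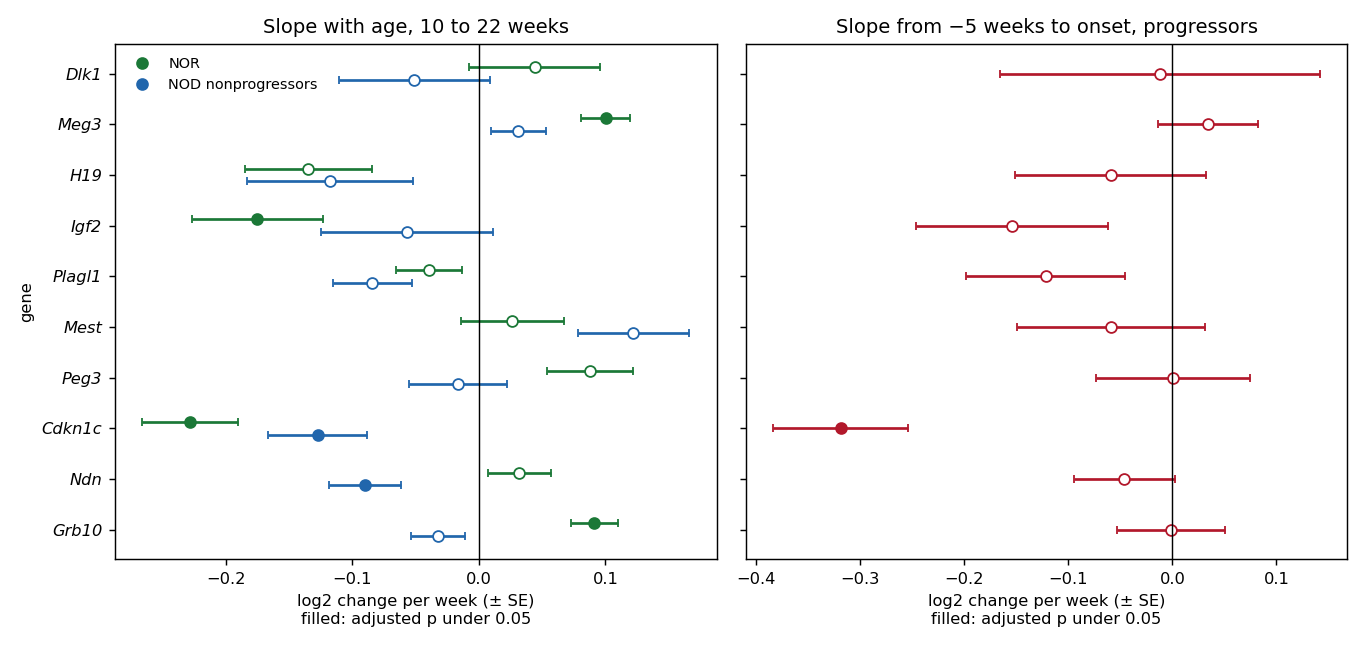
Log2 change per week (± SE) of each gene from 10 to 22 weeks in NOR and nonprogressors (left) and from −5 weeks to onset in progressors (right), with filled points for an adjusted p under 0.05. *Cdkn1c* is filled in all 3 slopes, at −0.23, −0.13 and −0.32, and *Grb10* is filled on the rising side in NOR.

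Progressors and nonprogressors did not differ detectably in any member. At 6 weeks, with 10 and 11 libraries and batch as a term, 0 of 10 members and 0 of 20090 genes passed (edgeR's quasi-likelihood test). 0 members and 999 genes had an unadjusted p under 0.05, and DESeq2 called 0 genes. *Dlk1* had the largest difference, progressors minus nonprogressors, of 0.60 ± 0.38 (adjusted p = 0.909), and *Plagl1* one of −0.02 ± 0.16. Later, with biopsies summed per mouse, 0 of 10 members and 0 of 23833 genes passed, 2238 genes had an unadjusted p under 0.05, and DESeq2 called 146 genes. *H19*, with −0.68 ± 0.22 (adjusted p = 0.403), was the 1 member with an unadjusted p under 0.05. The later groups were not matched in age, because the ages of progressors after 6 weeks are not in the labels. Age and outcome cannot be told apart fully in that comparison.

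As onset came nearer, 1 member changed, and the progressors also grew older over these weeks. Age and time to onset cannot be told apart in this slope. The same member, *Cdkn1c*, also fell with age in NOR and in nonprogressors, with the limits given above. From −5 weeks to onset *Cdkn1c* fell by 0.32 per week on the log2 scale (SE 0.06, adjusted p = 0.010 by edgeR's quasi-likelihood test), where 1.74% of all genes fell. Its batch 1 libraries were at 512, 859, 105, 359.8 and 99.5 CPM at −5 weeks and at 252, 49.7, 76.4, 107 and 135 at onset. In batch 2 they were at 171, 28.1, 223, 206 and 65.0 CPM and then at 95.7, 28.05, 34.5, 39.1 and 74.8. The groups overlapped in both batches. The slope passed in batch 1 alone, and in batch 2 alone it was −0.29 (SE 0.08, adjusted p = 0.0747). The slopes of the other 9 members ran from −0.15 (*Igf2*) to 0.03 (*Meg3*) and did not pass. The slope of *Dlk1* over both batches, −0.01 ± 0.15, averaged opposite signs, with 0.45 ± 0.16 (adjusted p = 0.0784) in batch 1 alone and −0.57 ± 0.18 (adjusted p = 0.0944) in batch 2 alone. *Mest* had 0.21 and −0.33 and *Plagl1* 0.059 and −0.33 in the same order, and none of these passed. Of the marker lists, 1 of 7 adipocyte, 1 of 4 neutrophil and 1 of 5 T cell markers fell toward onset and 0 of 8 fibroblast markers passed, and their part in the slopes was not tested.

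Between −7 weeks and the later progressor samples of batch 2, 5 members were lower later, *Dlk1* (−2.45 ± 0.43, adjusted p = 0.0023), *Igf2* (−1.39 ± 0.31, 0.0084), *Plagl1* (−0.9998 ± 0.23, 0.0090), *Cdkn1c* (−1.39 ± 0.28, 0.0050) and *Grb10* (−0.40 ± 0.12, 0.040) by edgeR's quasi-likelihood test, where 3.93% of all genes were lower. This contrast shares its later samples with the drop after 6 weeks. In the same contrast 2 of 8 fibroblast markers (median −0.49), 4 of 5 erythroid, 1 of 5 endothelial, 1 of 7 adipocyte and 1 of 4 Schwann cell markers were lower later, and 1 of 7 macrophage and 1 of 4 hair follicle markers were higher. Their part in the members' change was not tested. Of the 8 samples at −7 weeks, 4 came from progressors 1 to 4, whose other samples were in batch 1. At −7 weeks *Dlk1* was at 12.1, 10.8, 7.34 and 10.9 CPM in these 4 mice and at 2.43, 8.08, 2.96 and 2.58 in progressors 6, 7, 9 and 10. *Cdkn1c* was at 319, 246, 267 and 276 CPM in the former and at 167, 71.4, 234 and 84.4 in the latter, without overlap. With the mouse as a block 0 members and 4 genes passed, and *Dlk1* changed by −2.09 (adjusted p = 0.0847). Without the −7-week libraries of progressors 1 to 4, an alternative chosen after seeing the data, 0 members and 7 genes passed, with *Dlk1* at −1.61 ± 0.55 (adjusted p = 0.186) and *Cdkn1c* at −0.80 (0.306).

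Within groups of a batch, most pairs of members varied together from library to library. Progressors of the same time before onset can differ in age, and this was not removed. After the mean of each group and batch was subtracted from log2 CPM, 39 of 45 pairs of members had a correlation above 0 over 114 libraries, with a median r of 0.36. The highest was that of *Ndn* with *Grb10* (r = 0.78), followed by *Meg3* with *Grb10* (0.77), *Dlk1* with *Grb10* (0.72) and *Dlk1* with *Plagl1* (0.68). The neighbours *H19* and *Igf2* had 0.63 and *Dlk1* and *Meg3* 0.57, and the lowest was that of *Meg3* with *Cdkn1c* (−0.28). Some pairs held in 1 batch only, as *H19* with *Peg3* (0.66 and 0.01 in batches 1 and 2) and *Mest* with *Peg3* (0.58 and −0.03). The libraries share their depth and cell makeup across genes, and no p is given. Pairs of other genes were not computed, so whether these values are particular to the members is not known. The mean of the fibroblast markers had an r of 0.87 with *Grb10*, 0.73 with *Ndn*, 0.68 with *Dlk1* and 0.66 with *Plagl1* and *Meg3*. The myogenic markers had 0.64 with *H19*, 0.63 with *Igf2* and 0.60 with *Peg3*. In batches 1 and 2 these were 0.72 and 0.33, 0.66 and 0.49, and 0.69 and 0.44, in the same order. The summed myogenic markers were low in batch 2, with group medians from 0.451 to 2.64 CPM. The endothelial markers had 0.64 with *Plagl1* and *Igf2*, 0.62 with *Peg3* and 0.61 with *Mest*. The adipocyte markers had 0.63 with *Igf2* and 0.62 with *Peg3*.

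**Figure D5:**
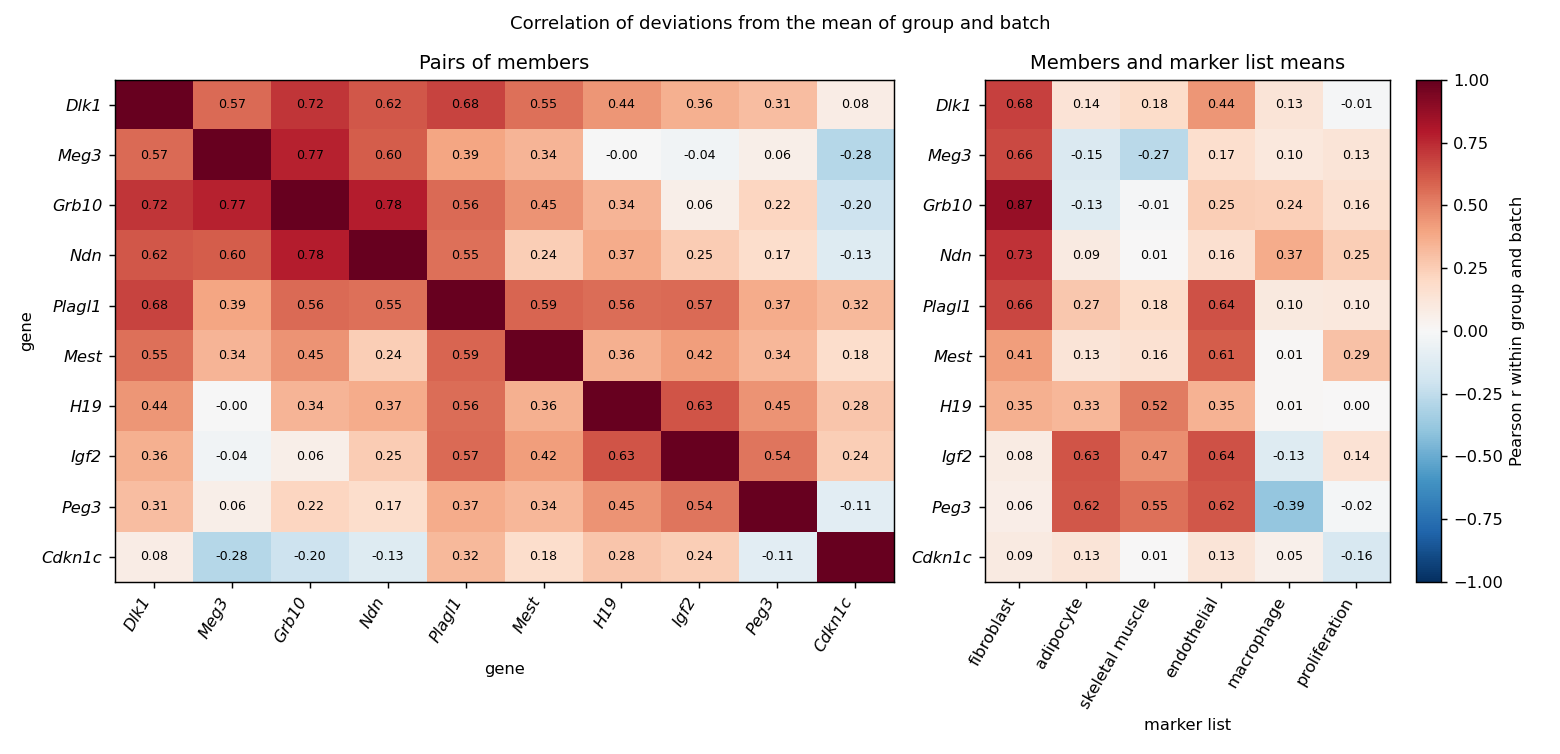
Pearson r over 114 libraries of the deviations from the mean of group and batch, for pairs of members (left) and for members against the mean of each marker list (right). *Ndn*, *Grb10*, *Meg3* and *Dlk1* form a block with r from 0.57 upward in the pairs named in the text, and the fibroblast column is highest for *Grb10* (0.87).

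Taking levels over all libraries of a batch, with age and group left in, *Plagl1* followed the mean of the other 9 members most closely (r = 0.92 over 74 libraries of batch 1 and 0.96 over 46 of batch 2), then *Dlk1* (0.87 and 0.95), and *Cdkn1c* least (0.06 and 0.22). The 5 genes outside the set most like its mean in batch 1 were *Itm2a* (r = 0.88), *Obsl1* (0.87), *Zfhx4* (0.87), *Galnt17* (0.87) and *Nedd4* (0.86), with 0.94, 0.93, 0.96, 0.90 and 0.92 in batch 2. *Zfhx4* was the gene most like the set in batch 2. These genes share the libraries and the difference between 6 weeks and later times, so the values are a description.

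Other imprinted genes moved in both directions after 6 weeks in NOD, with more falling than rising in each series. Genes in general fell and rose there in nearly equal shares. Of 49 tested in batch 1, 10 fell and 5 rose in nonprogressors and 18 fell and 5 rose in progressors, and of 48 tested in batch 2, 13 fell and 8 rose in nonprogressors and 14 fell and 9 rose in progressors (edgeR's quasi-likelihood test). In NOR 0 of 49 passed. Of all genes, 6.61% fell and 7.15% rose in batch 1 nonprogressors, and 13.4% and 13.7% in batch 1 progressors. In batch 2, 17.3% fell and 16.8% rose in nonprogressors, and 16.4% and 14.8% in progressors. In NOR 0.0357% fell and 0% rose. Their median changes were between −0.17 and −0.048. The non-coding *Rian* and *Mirg* and the retrotransposon-derived *Rtl1*, which lie beside *Meg3* in the *Dlk1* cluster, fell by 1.79, 1.56 and 1.59 on the log2 scale in batch 2 progressors and by 1.59, 1.38 and 1.42 in batch 2 nonprogressors. *Calcr*, the calcitonin receptor gene, fell by 4.47 in batch 1 nonprogressors and *Gnas*, which encodes a G protein subunit, fell by 0.41 in batch 1 progressors. *Nnat*, which encodes neuronatin, rose by 3.13 in batch 2 nonprogressors, and *Inpp5f* rose in progressors by 0.45 and 0.27 in batches 1 and 2. In NOR *Rian*, *Rtl1* and *Mirg* rose from 10 to 22 weeks by 0.13, 0.16 and 0.13 per week, as *Meg3* did, and the slopes of *Rian* (−0.13) and *Rtl1* (−0.14) were lower in NOD by the test of the difference. Between the strains at 10 to 22 weeks *Gatm*, an enzyme gene of creatine synthesis, was higher in NOD by 1.40 and *Klf14* was lower by 1.68.

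Genes of the insulin-like growth factor axis were counted the same way. Of 21 tested, 5 fell in batch 1 nonprogressors and 12 in batch 1 progressors, while in batch 2 7 fell and 5 rose in nonprogressors and 7 fell and 4 rose in progressors. In NOR 0 passed. The shares of all genes in these contrasts are those given above beside the other imprinted genes. *Igf2bp3*, which encodes a fetal RNA-binding protein that binds *Igf2* RNA, fell in all 4 NOD series, by 0.85 and 0.65 in nonprogressors and by 1.05 and 0.61 in progressors. The receptor gene *Igf1r* fell by 0.40 in batch 2 progressors, and the growth hormone receptor gene *Ghr* fell by 1.04 in batch 1 progressors. The binding protein gene *Igfbp5* fell by 1.498 in batch 1 nonprogressors, and *Igfbp6* fell by 1.26 and 1.45 in nonprogressors and progressors of batch 2. *Irs2*, an adaptor of the insulin receptor, rose by 0.81 in batch 2 nonprogressors and by 0.61 in batch 2 progressors. With age in NOR, *Pappa2* and *Igfbp2*, which encode a protease of binding proteins and a binding protein, fell by 0.31 and 0.29 per week, and *Pappa2* also fell by 0.36 per week toward onset (adjusted p = 0.012).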

How the data were processed

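Bulk RNA sequencing of IN biopsies was analysed in 120 samples. The authors depleted ribosomal RNA from total RNA, sequenced batch 1 and batch 2 on different NovaSeq instruments, and deposited estimated counts from RSEM per Ensembl gene, as whole numbers without normalization, in 1 table for each batch. The submitters' processing notes name cutadapt, FastQC, STAR, RSEM, MultiQC and GRCm38. The annotation release and the use of strand in counting are not given in the sources used here. The tables list 55492 and 55491 rows, and 55227 of the 55487 shared genes (99.5%) were matched to GENCODE M21 for coordinates and exon lengths. Promoter and microRNA sequences came from RefSeq (GRCm38.p6), which gave no promoter used here for *H19* and *Cdkn1c*.

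Samples were grouped by strain, outcome, time and batch as labelled. The 10 genes and all lists were chosen with earlier results of these data known. edgeR 4.0.16 in R 4.3.3 was run on the counts (filterByExpr with a minimum count of 10, TMM scaling and the quasi-likelihood test, with p adjusted over all genes by Benjamini-Hochberg and a threshold of 0.05), with DESeq2 1.42.0 as an alternative. Log2 CPM used a prior count of 2. The 5 contrasts between 6 weeks and later times weighted the later times equally. They were fitted within a batch and describe the members. Counts of members past the threshold in them are given beside the share of all genes and are not used as support. Strain was compared in batch 1 only, since batch 2 holds no NOR sample, and progression was compared with batch as a term. The named genes were the 10 members, up to 3 of each other list in each direction with the smallest p among those past the threshold, and the 5 genes most correlated with the mean z-score of the members in batch 1. Not all genes under this rule are named in the text.

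Other settings were no filter on low counts, the mouse as a block, each mouse left out, the 18-week library of NOR mouse 5 left out, single batches and biopsies entered separately. The pairing of samples comes from the labelled mouse numbers. Biopsies of 1 mouse had deviations from the group mean with average correlations between −0.086 and 0.026 over 2000 genes. All 239 replicate pairs differed by more than sampling noise, with a chi-square of at least 12.03 per degree of freedom. Marker lists (fibroblast, proliferation, adipocyte, myogenic, skeletal muscle, endothelial, erythroid, mural, macrophage, neutrophil, T cell, B cell, epidermis, hair follicle and Schwann cell) were summed as CPM. When 200 genes were given a log2 change of 1 in simulated counts, the quasi-likelihood test found 73.3% of 195 changed genes tested between strains at 10 to 22 weeks (21842 genes), 77.2% of 197 for progression at 6 weeks (19861 genes) and 55.9% of 195 for a change of 1 over the NOR ages (19557 genes). The simulated counts held no effect of batch or of mouse, so these shares may not hold for the real comparisons. Of the genes called, 5.92%, 6.75% and 3.54% were unchanged ones, in the same order. Figures were drawn with matplotlib 3.10.9 in Python 3.11.15. The floor of 3 counts for a count of 0 covers counting error only.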

Additional observations from a re-analysis of the deposited data

Results flagged for a closer look

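A library far from the others of its group was found by Dixon's test in 12 of 230 combinations of gene and group, and chance gives about 1 in 20. Nonprogressor 5 of batch 2 accounted for 4 of them, all low. At 6 weeks it had 9.89 CPM of *Dlk1* (32.6 to 75.8 in the other 6 mice) and 16.5 of *Ndn* (24.98 to 33.7), and at 14 weeks 0.370 of *Igf2* (3.63 to 6.18 in the other 5) and 9.86 of *Peg3* (28.8 to 48.7). Its fibroblast markers at 6 weeks summed to 44149 CPM against 55989 to 79040 in the others, and their part was not tested. Progressor 7 of batch 2 had 22.3 CPM of *Plagl1* at 6 weeks (60.5 to 77.0 in the other 4). Its fibroblast markers summed to 44617 CPM (59580 to 76339 in the others), its endothelial markers to 40.8 (88.9 to 342) and its erythroid markers to 49.3 (129 to 717), and their part was not tested.

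Among the high values, nonprogressor 2 had 471 CPM of *H19* at 14 weeks in batch 1 (18.9 to 27.2 in the other 3), progressor 1 had 459 of *Cdkn1c* at −3 weeks (119 to 172) and 4.80 of *Dlk1* at −5 weeks (0.740 to 1.26), and progressor 9 had 14.4 of *Mest* at −5 weeks (5.75 to 6.59). Among the low values, nonprogressor 1 had 39.2 CPM of *Grb10* at 22 weeks (61.6 to 64.8), NOR mouse 3 had 9.79 of *Peg3* at 18 weeks (26.2 to 27.4) and NOR mouse 5 had 0 of *Igf2* at 18 weeks (2.62 to 3.23), where a count of 0 allows up to 2.91 CPM in that library.

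The age slope of *Grb10* differed between the strains by the test of the difference itself, by −0.12 per week on the log2 scale (SE 0.03, adjusted p = 0.013 by edgeR's quasi-likelihood test), NOD nonprogressors minus NOR.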

How the results depend on the processing

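Of 460 recomputed changes after 6 weeks of single members, 436 lay below 0 and all stayed within 1 SD of the changes per mouse. Leaving out 1 mouse seldom moves a mean by an SD between mice, so the latter says little about stability. For *Igf2* in batch 1 nonprogressors that range took in −3.12 to −1.64 with a mouse left out. Of 650 recomputed differences and slopes of single members, 547 kept their direction and side of the threshold, 44 lost the threshold, 7 gained it and 52 changed sign, 30 of these with a mouse left out. The causes were not tested. With DESeq2 the number of genes called was 46 for the change in NOR after 6 weeks (7 with edgeR), 770 for strain at 6 weeks (403), 2000 for strain at 10 to 22 weeks (1117), 146 for progression later (0), 2699 for the nonprogressor slope (1290), 1072 with 2 members for the slope difference (485 with 1) and 1099 for the slope to onset (709). With no filter on low counts it was 12 for the change in NOR, 317 for the slope difference and 357 for the slope to onset, and 0 members passed for the nonprogressor slope. With the mouse as a block (paired analysis) it was 2 for the change in NOR, 4 with 0 members for −7 weeks, 309 for the slope difference and 466 for the slope to onset, and 0 members passed for the nonprogressor slope. Beside these and the NOR members named in the report, the block changed no other member's call. Without the 18-week library of NOR mouse 5 the change in NOR had 12 genes and the slope difference 770 with 2 members. Without the −7-week libraries of progressors 1 to 4 the −7-week contrast had 7 genes and 0 members. With biopsies entered separately 1 member passed for strain at 10 to 22 weeks. Batch 2 alone gave 4 genes for progression later and 9 with 0 members for the slope to onset, and batch 1 alone 1420 for the latter.

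With a mouse left out, the genes called after 6 weeks ran from 0 to 54 in NOR, from 377 to 2766 and from 4661 to 8290 in nonprogressors of batches 1 and 2, and from 2939 to 4996 and from 4698 to 6757 in progressors. The medians of the members ran from −1.64 to −1.10, from −1.94 to −1.27, from −1.32 to −1.12, from −2.06 to −1.69 and from −1.70 to −1.49 in the same order. The genes called ran from 267 to 420 for strain at 6 weeks, from 709 to 1024 (1 to 3 members) at 10 to 22 weeks, from 1052 to 2435 (3 to 4 members) for the NOR slope and from 396 to 949 (0 members) for the nonprogressor slope.

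None of the following values passed the threshold where it changed sign. For −7 weeks *Meg3* was at 0.029 with the block and 0.051 without progressors 1 to 4. For progression at 6 weeks *Igf2* was at 0.74 and *Plagl1* at 0.14 in batch 1, and *H19* at −0.11, *Mest* at 0.0033 and *Peg3* at −0.29 in batch 2. For progression later *Meg3* was at 0.0069 with no filter, *Meg3* at 0.090, *Igf2* at 0.60, *Peg3* at 0.15 and *Grb10* at 0.016 in batch 1, and *Dlk1* at −0.39 in batch 2. For the slope to onset *Peg3* was at −0.00097 with no filter, *Dlk1* at 0.45, *H19* at 0.0051, *Plagl1* at 0.059, *Mest* at 0.21, *Ndn* at 0.072 and *Grb10* at 0.17 in batch 1, and *Meg3* at −0.10 and *Peg3* at −0.18 in batch 2. With a mouse left out, strain at 6 weeks ran from −0.36 to 0.68 for *Dlk1*, −0.082 to 0.29 for *Meg3*, −0.12 to 0.31 for *H19*, −0.15 to 0.54 for *Igf2*, −0.20 to 0.40 for *Plagl1*, −0.18 to 0.74 for *Mest*, −0.057 to 0.63 for *Peg3* and −0.29 to 0.13 for *Cdkn1c*. Strain at 10 to 22 weeks ran from −0.15 to 0.056 for *Meg3*, −0.41 to 0.092 for *Mest*, −0.36 to 0.12 for *Peg3* and −0.30 to 0.071 for *Ndn*, and the nonprogressor slope of *Peg3* from −0.040 to 0.0038. Low levels limit the precision for *Dlk1*, with a later median of 1.11 CPM in batch 2 progressors, and for *Igf2*, with a count of 0 in 1 library.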

Other observations

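The 6 batch 1 nonprogressor samples labelled by days after implantation entered no comparison. They are labelled mouse 1 or mouse 2, and the labels do not say whether these are the mice of the same numbers labelled by age. *Cdkn1c* was at 353 and 304 CPM at 31 days, 348 and 225 at 38 days and 369 and 353 at 108 days. *Dlk1* was at 3.90 and 2.22, 5.76 and 0.625, and 1.93 and 3.60 CPM at the same times. *H19* was at 79.1 and 81.2 CPM at 31 days, 108 and 81.1 at 38 days and 23.7 and 32.5 at 108 days. *Mest* was at 5.59 and 6.32, 4.90 and 6.60, and 2.06 and 1.76 CPM, and *Meg3* at 121 and 118, 92.2 and 67.7, and 58.4 and 69.0 CPM. With 2 samples at each time, no test was made.

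At −7 weeks *Peg3* was at 104.6 CPM in progressor 7 and 87.4 in progressor 10, and at 13.7 to 28.6 in the other 6 progressors. The highest *Peg3* level of the batch 2 libraries from −5 weeks to onset was 56.0 CPM, in progressor 8 at −5 weeks. These libraries were singled out after their values were seen.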
